A study of Mus musculus with 7 samples.

Results

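The 4 Hox gene clusters of the mouse genome were examined for 5-hydroxymethylcytosine (5hmC) in the hippocampus. Their members were the 500 bp counting bins whose start lay inside fixed intervals of the build mm9, without use of any read count. HoxA, on chromosome 6, held 240 bins with starts from 52100001 to 52219501, and HoxB, on chromosome 11, held 360 from 96050001 to 96229501. HoxC, on chromosome 15, held 240 from 102750001 to 102869501, and HoxD, on chromosome 2, held 250 from 74480001 to 74604501. Together these were 1090 of the 5451548 bins counted. The 500 kb on each side of a cluster, 2000 bins for each cluster, served as its local background and are called its flanks. The libraries were made from hippocampal DNA of C57BL/6 mice kept without stress, captured with an antibody against 5hmC. There were 3 wild-type (WT) libraries and 4 libraries of the Tet2 conditional knockout (Tet2 CKO), named a TET2 knockout in their titles. The promoter or cell type that drives the deletion, the age of the animals and any pooling of animals were not given in the sources used here, and neither group carries another allele or agent in the labels.

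Hox genes encode homeodomain transcription factors that give cells their position along the body axis, and within each cluster the genes stand in the order in which they are used from front to back. In the forebrain, which includes the hippocampus, the clusters are known to be largely silent and held under Polycomb repression, with CpG islands that carry little DNA methylation. 5hmC is made from 5-methylcytosine by the TET dioxygenases, of which Tet2 encodes a member, and in neurons it is known to be abundant along the bodies of active genes.

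The substrate of TET enzymes in neurons is mainly methylated CpG, so the promoter sequences are shown for the number of CpG sites they hold. RefSeq promoters of the build GRCm38.p6 matched 22 of the 39 Hox genes, giving 24 promoters. Those with the most CpG sites in each cluster and the one with the fewest of all are printed below, as the 250 bases before the start, 5′ to 3′ on the strand of the gene, with each CG in capitals. Hoxa13 (chr6:52260881-52261130, minus strand) and Hoxd13 (chr2:74667975-74668224, plus strand) stand at the posterior end of their clusters, with 35 and 31 CpG sites. Hoxb4 (chr11:96318017-96318266, plus strand) and Hoxc4 (chr15:103034145-103034394, plus strand) belong to the same paralog group, with 14 and 8. Hoxd11 (chr2:74679308-74679557, plus strand), which acts in limb and axial patterning, had 2. A second Hoxd11 promoter (chr2:74682073-74682322, plus strand), not printed, had 20.
Hoxa13: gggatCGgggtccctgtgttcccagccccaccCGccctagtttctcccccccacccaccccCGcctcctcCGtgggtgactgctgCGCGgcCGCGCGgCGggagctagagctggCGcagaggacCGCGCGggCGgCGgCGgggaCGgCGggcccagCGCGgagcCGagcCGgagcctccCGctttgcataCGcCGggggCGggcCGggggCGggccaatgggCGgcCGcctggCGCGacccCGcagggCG
Hoxb4: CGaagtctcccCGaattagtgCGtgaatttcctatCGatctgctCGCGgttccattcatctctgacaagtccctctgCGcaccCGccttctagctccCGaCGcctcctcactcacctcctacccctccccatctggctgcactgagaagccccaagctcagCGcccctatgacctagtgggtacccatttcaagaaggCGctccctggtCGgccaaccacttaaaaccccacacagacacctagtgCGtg
Hoxc4: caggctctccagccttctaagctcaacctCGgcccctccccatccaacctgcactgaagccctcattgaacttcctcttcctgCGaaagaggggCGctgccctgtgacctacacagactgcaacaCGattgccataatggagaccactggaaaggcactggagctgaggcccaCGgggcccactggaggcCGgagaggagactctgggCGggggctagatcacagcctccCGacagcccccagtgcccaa
Hoxd13: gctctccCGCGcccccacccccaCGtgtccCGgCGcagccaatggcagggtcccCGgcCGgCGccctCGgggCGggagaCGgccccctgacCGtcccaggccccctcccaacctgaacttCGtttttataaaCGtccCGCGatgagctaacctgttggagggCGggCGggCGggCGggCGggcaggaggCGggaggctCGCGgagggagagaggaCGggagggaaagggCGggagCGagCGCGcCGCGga
Hoxd11: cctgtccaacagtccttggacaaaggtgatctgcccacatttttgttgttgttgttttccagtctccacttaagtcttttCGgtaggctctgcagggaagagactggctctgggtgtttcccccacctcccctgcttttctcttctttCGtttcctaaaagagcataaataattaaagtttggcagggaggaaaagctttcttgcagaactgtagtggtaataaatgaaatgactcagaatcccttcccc

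The Hoxa13 and Hoxd13 sequences are dense in capitals, Hoxb4 and Hoxc4 hold them scattered, and the printed Hoxd11 promoter is nearly free of them. Over the 24 Hox promoters the median was 12.5 CpG sites, against 6 over all 32851 promoters. 21 of the 24 lay at or above the median of all promoters, and 31.5% of all promoters reached 12.5 or more. At least 1 CG stood in 92.1% of all promoters, read on either strand since CG is its own complement. The median GC content was 58.6% for Hox and 52.4% for all promoters, and the part of GC content in the read counts below was not tested. HoxC was represented by Hoxc4 alone and HoxB by 3 promoters. The bins are on mm9, so no bin was assigned to a promoter.

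**Figure D1:**
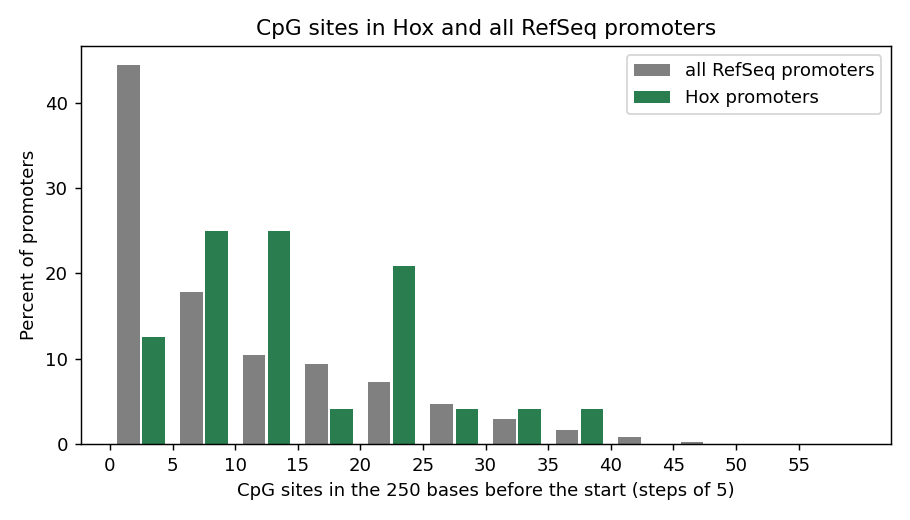
Share of promoters (percent, vertical axis) by the number of CpG sites in the 250 bases before the gene start (horizontal axis, steps of 5), for the 24 Hox promoters (green) and all 32851 RefSeq promoters (grey). The Hox bars extend from 2 to 35 sites, and the tallest grey bar is that of the promoters with the fewest sites.

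Read depth differed between libraries. Totals ran from 26134505 to 49414761 reads, of which 853 to 2774 fell in the Hox clusters. Bins with a mean above 100 reads, 375 in all and none of them in a Hox cluster, took 29.8% to 74.1% of a library and were left out of all densities. Tet2 CKO replicates 2 and 3 stood apart, with 69.8% and 74.1% in those bins and an X chromosome density of 1.05 relative to the autosomes in both, against 0.342 to 0.580 in the other 5 libraries. Most Hox bins with reads held an even number of them (78.0% to 86.4% per library), so single reads were not independent counts. Separate animals are not named for the libraries, so each p-value reflects library-to-library spread that could be technical.

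All 4 Hox clusters held less 5hmC signal than the DNA around them, in every library. Reads per bin in HoxA were 0.388 ± 0.0698 times those of its flanks (SD, n = 7), in HoxB 0.504 ± 0.0856, in HoxC 0.339 ± 0.0404 and in HoxD 0.462 ± 0.102. These correspond to 2.61-fold, 2.01-fold, 2.96-fold and 2.21-fold lower densities on the mean log2 scale. The log2 ratio of cluster to flanks was below 0 in 7 of 7 libraries for each cluster (exact permutation of signs over 7 libraries, two-sided, p = 0.0156, the smallest that 7 libraries allow, and 0.0156 after adjustment over 4 clusters).

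In HoxA, which patterns limbs, hindbrain and reproductive tract, the ratio was 0.412, 0.357 and 0.438 in WT replicates 1 to 3 and 0.358, 0.384, 0.274 and 0.495 in Tet2 CKO replicates 1 to 4. The lowest and the highest of the 7 were both Tet2 CKO libraries. HoxB, with genes for hindbrain and trunk identity, gave 0.329, 0.511 and 0.481 in WT and 0.513, 0.559, 0.594 and 0.542 in Tet2 CKO. WT replicate 1 was the low library, and the remaining 6 lay close together. For HoxC, which is used mainly in the trunk and tail, the ratio was 0.292, 0.384 and 0.373 in WT and 0.327, 0.338, 0.286 and 0.376 in Tet2 CKO. HoxC had the narrowest spread of the 4, and its groups overlapped over nearly their whole range. HoxD, known for limb and digit formation, gave 0.469, 0.378 and 0.545 in WT and 0.421, 0.348, 0.431 and 0.642 in Tet2 CKO. Its highest library was Tet2 CKO replicate 4.

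**Figure D2:**
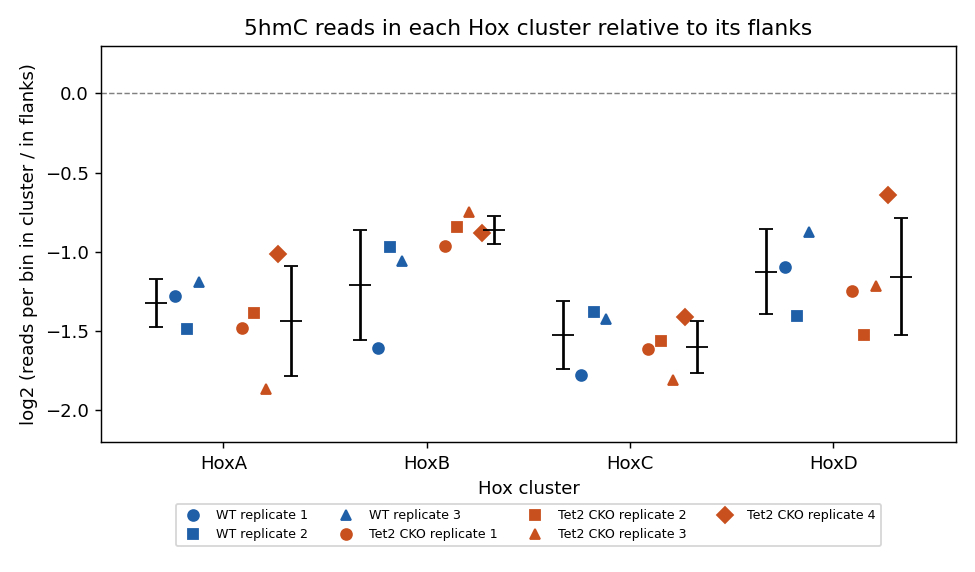
log2 ratio of reads per bin in each Hox cluster to reads per bin in its flanks (vertical axis), 1 point per library, with the mean and SD of each group as black bars and the dashed line at equal density. All points lie below the line, from -1.87 to -0.64.

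The raw reads behind these ratios were few. HoxB, the longest interval, held 1049, 586 and 668 reads in WT and 607, 450, 472 and 708 in Tet2 CKO. HoxC held 468, 271 and 289 reads in WT and 232, 158, 130 and 284 in Tet2 CKO. In Tet2 CKO replicates 2 and 3, HoxA stood at 0.225 and 0.172 of the autosomal density and its flanks at 0.588 and 0.629, whereas in the other libraries HoxA ran from 0.369 to 0.474 and its flanks from 0.958 to 1.07. The flanks were lower in those 2 libraries as well. Without them the mean log2 ratios were -1.29, -1.09, -1.52 and -1.05 for HoxA to HoxD, nearer to 0 than with all 7 libraries in HoxA, HoxC and HoxD and farther from it in HoxB, and below 0 in each of the 5 libraries (exact permutation of signs, two-sided, p = 0.0625, the smallest that 5 allow).

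Coverage, which a few high bins cannot set, was lower too. The share of bins with at least 1 read in the cluster minus that in its flanks was -21.4 ± 5.82 percentage points for HoxA, -20.3 ± 4.99 for HoxB, -24.2 ± 3.91 for HoxC and -16.1 ± 5.92 for HoxD (SD, n = 7, exact permutation of signs, two-sided, adjusted p = 0.0156 for each). In WT replicate 1, the library with the most bins covered, 60.8% of HoxA bins and 77.3% of its flank bins held a read. In Tet2 CKO replicate 2 these shares were 17.9% and 33.2%. Of all Hox bins, 71 (6.51%) held 0 reads in every library, against 1.76% of the flank bins. HoxC had the largest such share at 8.75%, and HoxB the smallest at 4.44%. At the other end, 1 of the 1090 Hox bins reached a mean of 10 reads, against 267 of the 8000 flank bins.

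Outside the intervals the signal rose at different distances. The flanks were cut into 80 bands of 50 kb, 20 for each cluster, and no band had a mean at or below that of its cluster. The cluster was lower than the band in all 7 libraries for 20 of 20 bands around HoxA, 17 around HoxB, 20 around HoxC and 15 around HoxD. At HoxA the bands next to the cluster stood at 0.944 of the flank mean on the lower-coordinate side and 1.01 on the other. At HoxC the adjoining bands were at 0.444 and 0.524, so that the low signal extended beyond the interval on both sides. HoxB (0.747 and 0.734) and HoxD (0.784 and 0.876) lay between these.

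**Figure D3:**
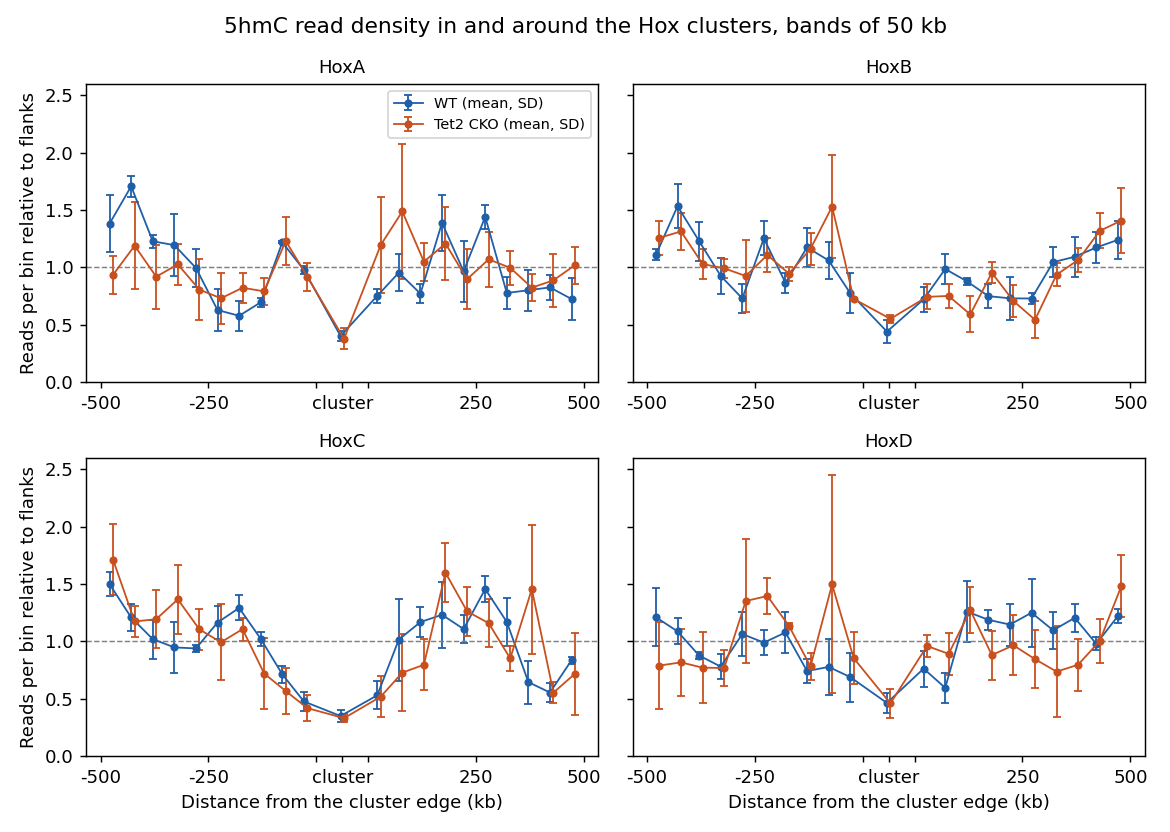
Reads per bin in bands of 50 kb relative to the flank mean (vertical axis) against the distance from the cluster edge in kb (horizontal axis), with the whole cluster as the middle point; points are group means and bars SD over 3 WT and 4 Tet2 CKO libraries. The cluster is the lowest point of each panel in both groups, except that 1 Tet2 CKO band of HoxB, at 0.544, lies beside the cluster value of 0.552, and the HoxC dip is the widest.

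Within the clusters the signal was low nearly throughout, with 1 main exception in HoxB. Each cluster was divided into windows of 10 kb, numbered from its lower coordinate, 55 in all, of which the last of HoxD extends past the interval. 46 of the 55 (83.6%) lay below the flank mean in all 7 libraries, as did 68 of the 400 flank windows (17.0%). All 12 windows of HoxA and all 12 of HoxC were among them, with 13 of 18 in HoxB and 9 of 13 in HoxD. Outside the HoxB stretch described below, HoxB window 18 and HoxD windows 1, 6, 8 and 12 rose above the flank mean in some libraries. The median window level was 0.374 of the flanks in HoxA, 0.372 in HoxB, 0.327 in HoxC and 0.444 in HoxD. In CPM, the reads of a window scaled to the size of its library, the median Hox window had 0.710, and 10.8% of the 253978 windows tested across the genome had that level or less.

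The main exception was a stretch of 4 windows in HoxB, from 96070001 to 96110000 on chromosome 11. It was picked out after its values were seen and is given without a test. Its windows 3 to 6 stood at 0.912, 1.37, 1.02 and 1.04 of the flank mean. The stretch had 0.628, 0.888 and 1.08 of the flank level in WT and 0.959, 1.28, 1.71 and 1.05 in Tet2 CKO. The other 14 HoxB windows had 0.244, 0.404 and 0.309 in WT and 0.386, 0.353, 0.275 and 0.398 in Tet2 CKO. In each library the stretch lay above the rest of the cluster, with means of 1.08 ± 0.340 and 0.338 ± 0.0635 (SD, n = 7). In the GRCm38.p6 gene order the widest gap between neighbouring genes of any Hox cluster is that between Hoxb13 and Hoxb9, near the lower-coordinate end of HoxB, but the mm9 bins were not matched to these genes. Without the stretch, HoxB fell to a log2 ratio of -1.59, close to the -1.57 of HoxC.

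**Figure D4:**
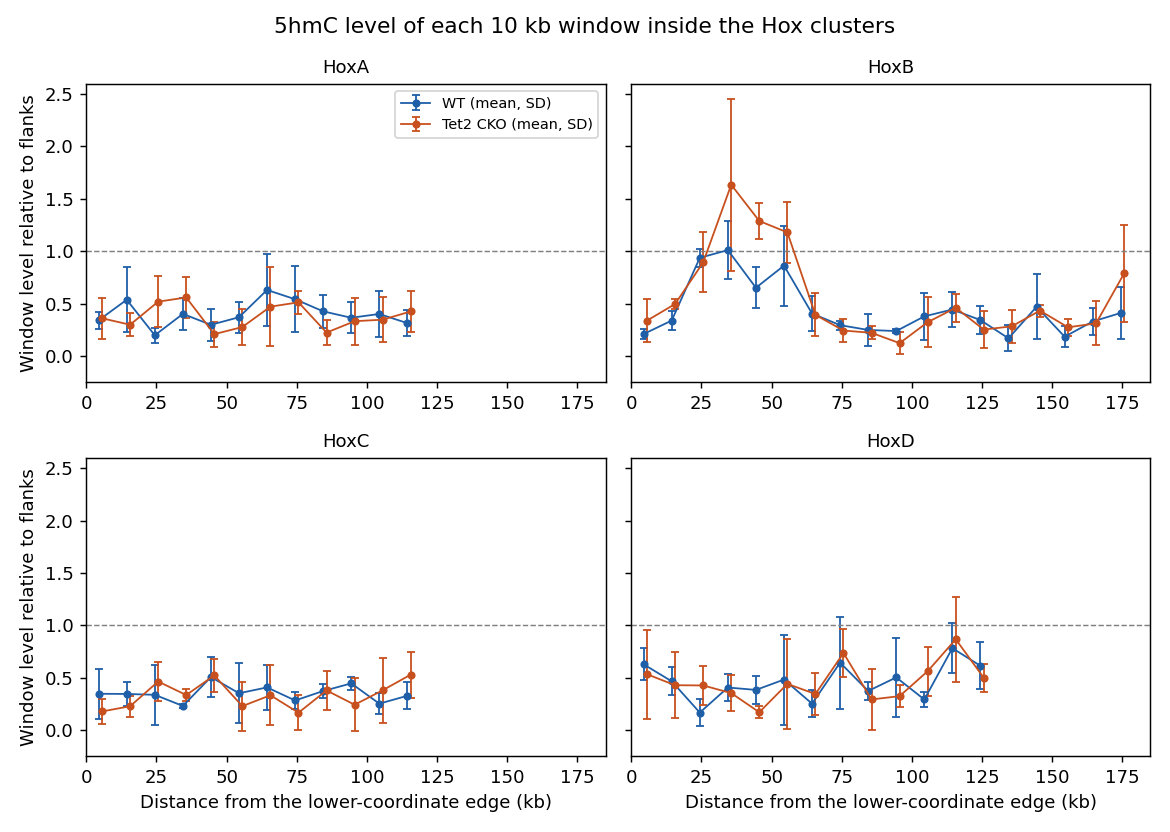
Level of each 10 kb window relative to the flank mean (vertical axis) along each Hox cluster, by distance from its lower-coordinate edge in kb (horizontal axis); points are group means and bars SD over 3 WT and 4 Tet2 CKO libraries. HoxB windows 3 to 6 rise to the dashed line of equal level, and the windows of HoxA and HoxC stay below it.

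The sides of each cluster hold different genes. By the GRCm38.p6 order, HoxB, HoxC and HoxD start with Hoxb13, Hoxc13 and Hoxd13 at their lower coordinate and end with Hoxb1, Hoxc4 and Hoxd1. The lower-coordinate side of HoxB had more reads than the other side, by 0.93 ± 0.48 on the log2 scale (SD, n = 7), in 7 of 7 libraries (exact permutation of signs, two-sided, p = 0.0156, adjusted 0.0313). The stretch described above lies in that side. The other windows of that side (1, 2, 7, 8 and 9) stood at 0.233 to 0.429 of the flank mean. Windows 10 to 18, on the other side, stood at 0.172 to 0.626. The difference between the sides without the stretch was not tested. HoxD went the other way, with a log2 difference of -0.43 ± 0.28 in 7 of 7 libraries (exact permutation of signs, two-sided, p = 0.0156, adjusted 0.0313). For HoxA (-0.16 ± 0.43, exact p = 0.344) and HoxC (0.02 ± 0.53, exact p = 0.953) the sides did not differ beyond the spread between libraries. With any 1 library left out, the adjusted p of HoxB and HoxD became 0.0625, since 6 libraries allow no smaller p than 0.0313 before adjustment.

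Comparison of the clusters with each other gave no difference that passed the adjustment over 6 pairs. The order of the mean log2 ratios from high to low was HoxB, HoxD, HoxA and HoxC. HoxB exceeded HoxC by 0.56 ± 0.29 in 7 of 7 libraries (exact permutation of signs, two-sided, p = 0.0156, adjusted 0.0938), and this difference was -0.02 without the HoxB stretch. HoxC lay below HoxD by a log2 difference of -0.43 ± 0.31 in 6 of 7 libraries, and HoxA below HoxD by -0.24 ± 0.25 in 6 of 7 (both adjusted p = 0.0938, exact permutation). The neighbours HoxB and HoxD differed by 0.13 ± 0.44, with 4 libraries one way and 3 the other.

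Loss of Tet2 was then compared with WT for the same ratios. The mean log2 ratio of HoxA (± SD over 3 WT and 4 Tet2 CKO libraries) was -1.32 ± 0.15 in WT against -1.44 ± 0.35 in Tet2 CKO, that of HoxC -1.52 ± 0.22 and -1.60 ± 0.16, and that of HoxD -1.12 ± 0.27 and -1.16 ± 0.37. The groups overlapped in each of these 3 clusters (exact permutation over 35 splits, two-sided, p = 0.657, 0.543 and 0.943, and 0.876, 0.876 and 0.943 after adjustment over 4 clusters). In HoxB the ratio was -1.21 ± 0.34 in WT and -0.86 ± 0.09 in Tet2 CKO, a difference of 0.35. Each Tet2 CKO library lay above each WT library, the nearest being -0.963 and -0.967 (exact permutation, two-sided, p = 0.0286, the smallest that 3 against 4 allow, adjusted 0.114). The difference was 0.15 without WT replicate 1. The density of HoxB itself relative to the autosomes was 0.598 ± 0.0870 in WT and 0.613 ± 0.0793 in Tet2 CKO. Its flanks stood at 1.38 ± 0.12 in WT and 1.12 ± 0.20 in Tet2 CKO, with Tet2 CKO replicates 2 and 3 at 0.993 and 0.904.

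Window by window, no Hox window passed the test between WT and Tet2 CKO. All 55 Hox windows passed the minimum mean of 10 reads, and 0 of them had an adjusted p under 0.05 in edgeR's quasi-likelihood test, as did 0 of all 253978 windows tested (0% called higher and 0% called lower). At an unadjusted p under 0.05, 0 Hox windows were higher and 2 lower in Tet2 CKO, against 9.77% higher and 3.71% lower over all windows. The CPM of every Tet2 CKO library lay below that of every WT library in 3 Hox windows (7.89% of all windows) and above it in 0 (1.88% of all windows). These were HoxA windows 2 and 9 and HoxD window 5, and relative to the flanks the groups overlapped in each of them. HoxA window 9 (chromosome 6, 52180001 to 52190000), named after its values were seen, had 45, 16 and 36 reads in WT and 14, 9, 2 and 12 in Tet2 CKO. CPM was scaled to total reads, of which bins with a mean above 100 reads took 69.8% and 74.1% in Tet2 CKO replicates 2 and 3. The part of that scaling in the 3 windows was not tested. The count of 3 changed with the libraries included. Leaving out a library can only keep or raise it, since fewer values need to lie apart. It was 17 without Tet2 CKO replicate 4 (18.3% of all windows), 6 without Tet2 CKO replicate 1 (18.2%), 10 without WT replicate 2 (17.9%), 10 without WT replicate 3 (13.9%) and 5 without WT replicate 1 (10.6%). The Hox share of 30.9% without Tet2 CKO replicate 4 was above that of all windows, whereas with all 7 libraries the 5.45% was below it. Without Tet2 CKO replicate 2 or 3 the count stayed at 3 (8.47% and 8.06% of all windows). The count of windows above became 1 without WT replicate 1 (2.54%). With Tet2 CKO replicates 2 and 3 both left out, 3 Hox windows lay below (9.46% of all windows) and 2 above (7.64%). DESeq2's Wald test with its default trend gave no adjusted p to any Hox window, and with a local trend it gave one to 33 and called 0 (0.0945% of all windows called higher and 0.0125% lower). Blocking on the replicate number, which leaves out Tet2 CKO replicate 4, edgeR called 12.8% of all windows higher and 9.68% lower, and 1 Hox window lower. That window was HoxC window 10 (chromosome 15, 102840001 to 102850000), with 65, 28 and 24 reads in WT and 25, 2, 0 and 31 in Tet2 CKO. The low libraries were Tet2 CKO replicates 2 and 3. Over all 55 Hox windows these had 6 and 2 windows with 0 reads, and the other 5 libraries had none. For independent reads a count of 0 would allow up to 3 expected reads, but single reads were not independent counts here. The blocked log2 fold change of HoxC window 10 was -2.23 ± 0.82 (SE), with an adjusted p of 0.0489 in edgeR's quasi-likelihood test. Without the block, over all 7 libraries, it was -0.93 ± 0.76, with an adjusted p of 0.524. The unblocked test recovered 0 of 50 simulated 2-fold differences, 8 of 50 at 4-fold and 41 of 50 at 8-fold in a table of the same size, with 4 false calls. The changed windows were drawn from all windows tested, whose median was 1.59 CPM, against 0.710 in Hox windows. Counts were simulated with 1 common dispersion and without the difference of Tet2 CKO replicates 2 and 3. In that setting a 2-fold change of a single window was not detected, and a 4-fold change only in part. The limit for Hox windows was not simulated.

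The log2 fold changes of Hox windows had a median of -0.31, beside 0.01 over all windows and -0.32 over the 400 flank windows. Above 0 were 18 of the 55 Hox windows (32.7%), 50.5% of all windows and 31.0% of the flank windows. The Hox median was 0.01 without Tet2 CKO replicates 2 and 3, and the flank median then was -0.15. With library size alone as the scaling, the median over all windows moved to -0.52 and the Hox median to -0.67, that is 0.15 below all windows. The flank median moved to -0.80, so the Hox median was 0.12 above that of the flanks.

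**Figure D5:**
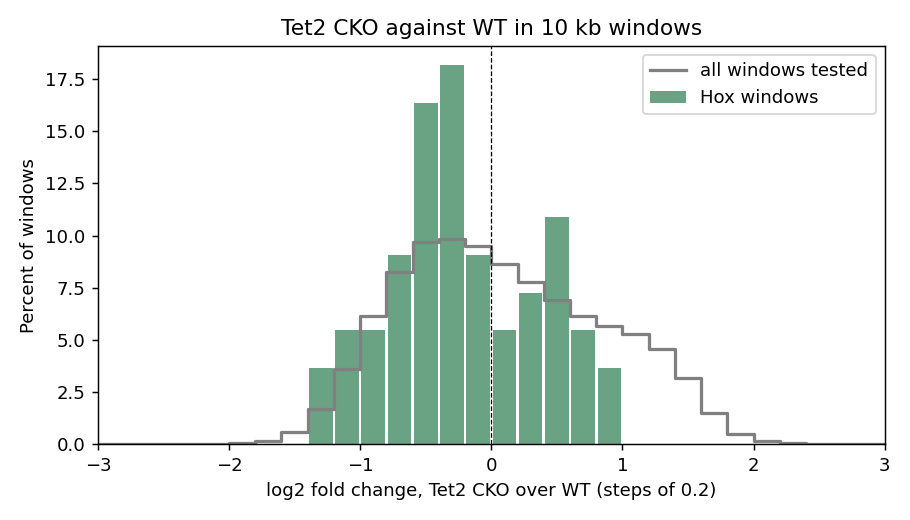
Distribution of log2 fold changes, Tet2 CKO over WT (horizontal axis, steps of 0.2), as the percent of windows (vertical axis), for the 55 Hox windows (green bars) and all 253978 windows tested (grey line). The Hox windows run from -1.34 to 0.98, with no bar in the right tail that the grey line has.

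The windows with the highest and lowest CPM in each cluster and those with the smallest p in each direction were examined in turn. HoxB window 4 (chromosome 11, 96080001 to 96090000), the highest of the clusters, had 125, 69 and 96 reads in WT and 62, 79, 121 and 79 in Tet2 CKO. The groups overlapped, and the log2 fold change was 0.45 ± 0.48 (SE), which became -0.28 with library size as the scaling and -0.12 without Tet2 CKO replicates 2 and 3. HoxB window 5 (96090001 to 96100000), next to it in the same stretch, had the smallest p among windows higher in Tet2 CKO. Its level was 0.423, 0.754 and 0.777 of the flanks in WT and 1.05, 1.39, 1.45 and 1.27 in Tet2 CKO. On this scale the groups were apart, as they were in the same direction in HoxA window 3 and HoxC window 4. HoxA window 3 stood at 0.241, 0.116 and 0.236 in WT and 0.325, 0.754, 0.293 and 0.703 in Tet2 CKO. HoxC window 4 stood at 0.217, 0.255 and 0.217 in WT and 0.321, 0.308, 0.422 and 0.286 in Tet2 CKO. No Hox window was apart the other way, and the share over all windows was not computed on this scale. In CPM the groups overlapped in each of these windows. The log2 fold change of HoxB window 5, 0.78 ± 0.43, had an adjusted p of 0.383 in edgeR. HoxB window 10 (96140001 to 96150000) was the lowest of its cluster in CPM and of all Hox windows relative to the flanks, with 44, 14 and 19 reads in WT and 17, 0, 6 and 7 in Tet2 CKO.

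In HoxA, window 7 (chromosome 6, 52160001 to 52170000) was the highest and window 5 (52140001 to 52150000) the lowest. Window 7 had 82, 14 and 57 reads in WT and 29, 0, 13 and 49 in Tet2 CKO. Neither group was uniform here, and the log2 fold change of -0.61 ± 0.71 turned to 0.04 without Tet2 CKO replicates 2 and 3. Window 5 had 18, 23 and 18 reads in WT and 8, 8, 2 and 17 in Tet2 CKO. Window 3 (52120001 to 52130000) was the other window named for being higher, with 30, 6 and 14 reads in WT and 17, 20, 9 and 38 in Tet2 CKO (log2 fold change 0.98 ± 0.59, edgeR adjusted p = 0.409). Window 2 (52110001 to 52120000), beside it, had the smallest p among lower windows, with 41, 20 and 53 reads in WT and 16, 12, 6 and 13 in Tet2 CKO. Its CPM did not overlap between groups, and the log2 fold change was -1.15 ± 0.54 (edgeR adjusted p = 0.369). Relative to the flanks the groups overlapped, at 0.329, 0.387 and 0.895 in WT and 0.306, 0.453, 0.196 and 0.241 in Tet2 CKO. Without WT replicate 3, its highest library, the log2 fold change was -0.67.

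In HoxC, window 5 (chromosome 15, 102790001 to 102800000) was highest with 66, 41 and 21 reads in WT and 25, 29, 15 and 33 in Tet2 CKO. Relative to the flanks it stood at 0.506 ± 0.186 in WT and 0.522 ± 0.159 in Tet2 CKO, with a log2 fold change of -0.14 ± 0.47. Window 8 (102820001 to 102830000) was lowest, with 26, 21 and 19 reads in WT and 12, 0, 3 and 24 in Tet2 CKO. In HoxD, window 12 (chromosome 2, 74590001 to 74600000) was highest with 67, 47 and 35 reads in WT and 30, 13, 40 and 44 in Tet2 CKO. Its level of 0.781 ± 0.242 in WT and 0.866 ± 0.405 in Tet2 CKO came nearest to the flanks of all windows outside the HoxB stretch. Window 3 (74500001 to 74510000) was lowest, with 34, 5 and 4 reads in WT and 21, 8, 19 and 13 in Tet2 CKO. Window 5 (74520001 to 74530000) was the other window named for being lower, with 27, 17 and 27 reads in WT and 11, 4, 4 and 7 in Tet2 CKO. Its CPM did not overlap between groups, and the log2 fold change was -1.34 ± 0.63 (edgeR adjusted p = 0.369). Relative to the flanks the groups overlapped narrowly, at 0.247, 0.383 and 0.520 in WT and 0.253, 0.142, 0.141 and 0.144 in Tet2 CKO.

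At 500 bp, 1 Hox bin had the mean of 10 reads needed for the test, and it was not called, as in edgeR 0% of all tested bins were called higher and 0% lower. It lay in HoxB window 4 (chromosome 11, 96083501 to 96084000), with 4, 8 and 13 reads in WT and 14, 11, 30 and 3 in Tet2 CKO. Tet2 CKO held both the highest and the lowest count of this bin, and the log2 fold change was 0.46 ± 0.83 (edgeR adjusted p = 0.830, unadjusted p = 0.587). Over all bins 2.18% were higher and 4.69% lower at an unadjusted p under 0.05. DESeq2 did not call the bin either, and called 0.0184% of all bins higher and 0.502% lower. A count over 1 tested bin says nothing about the Hox clusters at large. Without the minimum, 1019 Hox bins were tested and 0 called, beside 0.00276% of all bins called higher and 0.000226% lower. At an unadjusted p under 0.05, 8 of them were higher and 35 lower, against 1.07% and 4.19% of all bins. The fullest bin of HoxD (chromosome 2, 74602001 to 74602500) had 40 reads in WT replicate 1 and 0 to 6 in each of the others. The fullest bins of HoxA and HoxC had 8 and 16 reads at most in any library.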

How the data were processed

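5hmC-enriched hippocampal DNA of 3 WT and 4 Tet2 CKO libraries was read on Illumina HiSeq 2000 machines, per the labels' protocols. The deposited values are raw read counts per bin of 500 bp, which the authors did not normalize. The submitters' processing notes list Bowtie2, HOMER, DESeq2 and mm9, without versions or roles. Input libraries were not used here, the handling of duplicates and of reads with several positions is not stated there, and the counts are not corrected for local differences in mapping. Reads carry no molecular identifiers.

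The Hox intervals, flanks, windows and lists were chosen with earlier results of these data known. Per library, reads per bin in a cluster were divided by those in its flanks, and log2 ratios were tested by exact permutation of signs over 7 libraries (128 sign changes) or of groups over 35 splits, two-sided, with Benjamini-Hochberg adjustment. Precision is limited by 853 to 2774 Hox reads per library. Counts over 10 kb windows and bins were tested on the whole table with edgeR 4.0.16 (R 4.3.3, TMM factors, quasi-likelihood, mean of at least 10 reads, adjusted p under 0.05), with DESeq2 1.42.0 as an alternative, and the window fit was tested on simulated data. CPM used total reads. A signed log2 value is Tet2 CKO minus WT, or cluster minus flanks. The SE of an edgeR log2 fold change was worked back from the test, as its absolute value divided by the square root of F. Python 3.11.15 with pandas 2.3.3, numpy 2.4.6 and scipy 1.17.1 was used for the ratios.

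Windows were named as those with the highest and lowest mean CPM in each cluster and the 2 of lowest unadjusted p among higher and among lower windows, bins as the fullest in each cluster and the longest empty run, and promoters as those with the most CG in each cluster and the fewest of all. Replicates 1 to 3 of both groups share numbers. Deviations of log2(CPM + 0.5) from the group means over 226906 windows correlated at 0.574, 0.360 and 0.411 for numbers 1, 2 and 3, above the criterion of 0.1 for pairs, though differently numbered libraries reached 0.532 (WT replicate 1 with Tet2 CKO replicate 4) and 0.418 (WT replicate 3 with Tet2 CKO replicate 2). Alternatives were flanks of 250 kb and 1 Mb, medians over windows, other high-count bounds, scalings, filters and tests, the block, and libraries left out. No mm9 annotation was used here, so bins carry no gene names.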

Additional observations from a re-analysis of the deposited data

Results flagged for a closer look

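In HoxD window 5 (chromosome 2, 74520001 to 74530000), 1 Tet2 CKO library stood apart from the other 3. Tet2 CKO replicate 1 had a level of 0.253 of the flank mean, and the nearest of the others was 0.144, so the gap took 0.969 of the range of the group, above Dixon's critical value for 4 samples. These levels rest on 11, 4, 4 and 7 reads. Of 34 groups of 4 libraries examined in this way 1 was marked, and chance marks about 1 in 20.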

How the results depend on the processing

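All 4 clusters stayed below their flanks in density and in covered bins under every alternative run. Keeping the bins with a mean above 100 reads could change nothing, since neither the clusters nor their flanks held any. Leave-one-out log2 ratios were -1.45 to -1.31 for HoxA, -1.05 to -0.91 for HoxB, -1.60 to -1.53 for HoxC and -1.23 to -1.08 for HoxD. Without Tet2 CKO replicates 2 and 3 the ratios were -1.29, -1.09, -1.52 and -1.05 and the covered-bin differences -23.6, -22.8, -26.0 and -17.6 percentage points (exact p = 0.0625 for each, the smallest 5 libraries allow). The difference between the sides was then 0.76 in HoxB and -0.28 in HoxD, and in HoxC it turned to -0.17. Leaving out 1 library gave 0.75 to 0.98 for HoxB, -0.49 to -0.36 for HoxD and -0.16 to 0.13 for HoxC.

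For Tet2 CKO against WT, the uncalled differences of HoxA, HoxC and HoxD changed sign to 0.12, 0.10 and 0.27 with medians over windows and to 0.072, 0.012 and 0.18 without Tet2 CKO replicates 2 and 3, and HoxC to 0.089 with flanks of 250 kb. Leaving out 1 library gave -0.26 to 0.027 for HoxA, -0.20 to 0.092 for HoxD and 0.15 to 0.47 for HoxB. Within the replicate block the differences were -0.26, 0.36, -0.14 and -0.20 for HoxA to HoxD (exact permutation of 3 pairs, which allows no p below 0.25), and the count of Hox windows called went from 0 to 1. The block changed no other call. The cause of these changes was not tested.

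With flanks of 1 Mb, HoxB minus HoxC was 0.67 and HoxC minus HoxD -0.50 (both exact adjusted p = 0.0469). HoxB minus HoxD was -0.33 with medians over windows and -0.043 without Tet2 CKO replicates 2 and 3. Without the HoxB stretch, an alternative chosen after seeing the data, HoxA minus HoxB was 0.20, HoxB minus HoxC -0.019 and HoxB minus HoxD -0.44. Among the windows, HoxA window 7 turned to 0.17 with the high-count share as a covariate and 0.041 without Tet2 CKO replicates 2 and 3, HoxB window 4 to -0.28 with library size only, -0.16 with the covariate and -0.12 without those libraries. Leaving out 1 library gave -0.41 to 0.12 for HoxC window 5 and -0.35 to 0.11 for HoxD window 12. Depth also limits single windows, with a median of 11 to 45 reads per Hox window and library.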

Other observations

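The longest runs of Hox bins without a read in any of the 7 libraries were short. HoxA had 4 such bins in a row, from 52142001 to 52144000 on chromosome 6, inside its lowest window. HoxC had 3 in a row, from 102783501 to 102785000 on chromosome 15, and HoxB (96136501 to 96137500 on chromosome 11) and HoxD (74502001 to 74503000 on chromosome 2) had 2 each. The longest run in the flanks was 3 bins. The HoxD run lies in the window with the lowest CPM of that cluster.

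The fullest HoxC bin (102792001 to 102792500 on chromosome 15) had 2, 0 and 4 reads in WT and 16, 10, 0 and 2 in Tet2 CKO. The fullest HoxA bin (52170501 to 52171000 on chromosome 6) had 2, 6 and 8 reads in WT and 6, 4, 2 and 0 in Tet2 CKO. All 7 libraries had more even than odd counts in Hox bins with reads, at 78.0% to 86.4% of them, and over all bins with reads the range was 71.7% to 83.6%. The sources used here do not state how read pairs were counted.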
